A study of Arabidopsis thaliana with 9 samples.

Results

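The 35S::pBVR3 line of Arabidopsis thaliana, in which phytochromes are inactivated throughout the plant, was set against its No-0 WT background in whole seedlings grown for 7 days under continuous far-red light (FRc). The 35S::pBVR3 seedlings carry a plastid-targeted biliverdin reductase (BVR) driven by the constitutive 35S promoter of cauliflower mosaic virus. No-0 WT seedlings carry no transgene. Seeds of both lines had received a red pulse (75 μmol m-2 s-1, 5 min) and 3 days of dark stratification at 4 °C. The comparison took 6 of the 9 Affymetrix ATH1 arrays of the series, 3 of 35S::pBVR3 and 3 of No-0 WT, and the 3 arrays of CAB3::pBVR2 entered only the estimate of the spread and the filter on low signal. It covered every probe set other than the controls, 22746 in all, of which 15436 passed a filter on low signal and were tested. The study's introduction notes that expression from 35S is enriched in vascular tissue, and 35S::pBVR3 is a single transgenic line, so an effect of BVR cannot be told apart from an effect of the insertion. The arrays came from separate RNA extractions, and nothing states that these were separate plantings, so the p-values measure the spread between extractions.

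Phytochromes are photoreceptors of red and far-red light whose light absorption depends on phytochromobilin, a bilin made in plastids from biliverdin. BVR converts biliverdin to bilirubin, which phytochromes cannot use, and so leaves the apoproteins without a working chromophore. In FRc, phytochrome A is the main active phytochrome: it enters the nucleus with the help of FHY1 and FHL, and there promotes de-etiolation, the change of a dark-grown seedling into a green one. De-etiolation includes the induction of nuclear genes for the photosynthetic apparatus, the loss of PORA transcript and restraint of hypocotyl elongation. The question of the comparison was which transcripts depend on phytochrome in the whole seedling under FRc.

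The scaling set the overall signal of the 6 arrays alike, so that likeness does not compare the samples. The background, taken as the brightest of 27 bacterial control probe sets, lay at 28.0 to 34.0 in 35S::pBVR3 and at 27.0 to 31.6 in No-0 WT, in MAS5 signal after each array was scaled to a common 75th percentile, the unit of every signal given here. Pearson correlations of log2 signal were 0.957 to 0.963 within 35S::pBVR3 and 0.953 to 0.968 within No-0 WT, and 0.925 to 0.946 between the lines. Some measures of RNA quality differed between the lines. The ratio of 3' to 5' actin probe sets was 0.401 to 0.515 in 35S::pBVR3 and 0.267 to 0.382 in No-0 WT. That of GAPDH was 0.970 to 1.13 in 35S::pBVR3 and 0.931 to 0.940 in No-0 WT, and the lines overlapped in neither ratio. The 25S rRNA probe set read 6649, 560 and 614 in 35S::pBVR3 and 1705, 1302 and 8413 in No-0 WT. The part of RNA quality in the results was not tested. The BVR transgene has no probe set on the array, so the line labels have no check from the transgene itself.

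In 35S::pBVR3 seedlings, 5 of 8 platform-named genes of chlorophyll synthesis fell, by modest amounts, while ENODL1, PORA and the seed storage gene CRU3 rose by large ones. These rising genes were named only through the study's gene table, whose genes the study chose on these arrays. Falls were also counted in lists for photosystem assembly and plastid ribosomes, but those lists were drawn up after the values were seen, and the ribosomal one rests on names from the study's own gene table alone. At an adjusted p under 0.05 (limma, Benjamini-Hochberg over 15436 probe sets) 656 probe sets were higher and 817 lower in 35S::pBVR3, 9.54% of those tested. With a change of at least 2-fold as well, 357 were higher (2.31% of those tested) and 172 lower (1.11%), 3.43% in all. The median log2 difference was 1.05 among those called higher and -0.82 among those called lower, against -0.03 over all probe sets tested. In this fit falls were the more frequent calls and rises the larger, as the plot of difference against mean signal shows. The signals of the 2 lines did not overlap for 5131 probe sets, 33.2% of those tested.

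**Figure D1:**
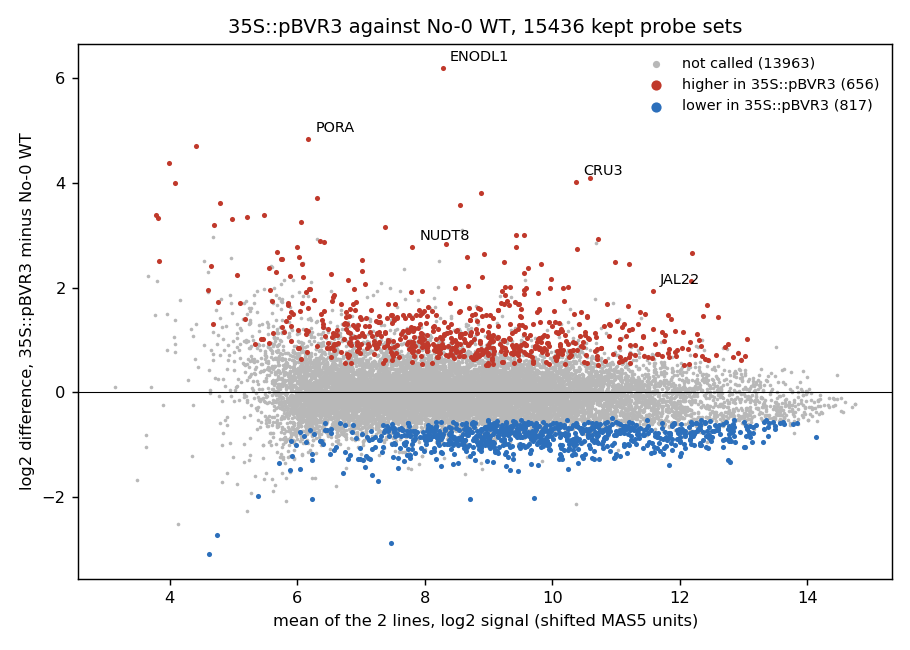
Log2 difference (35S::pBVR3 minus No-0 WT, vertical axis) against the mean log2 signal of the 2 lines (horizontal axis) for the 15436 probe sets tested, red where called higher (656), blue where called lower (817) and grey where not called. Rises reach a log2 difference of 6.18. The median is 1.05 among those called higher and -0.82 among those called lower. Where No-0 WT was not above background, as for PORA, the plotted difference is the fitted value and not a bound.

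The counts moved with the arrays and the scaling, and the direction of the balance moved with them. With the replicate number as a block, which pairs the arrays, 1167 were higher and 1323 lower, and 1465 of the 1473 calls were among them. Falls made up 55.5% of the calls, 42.5% of those made with no shift between arrays (786 higher and 581 lower) and 42.7% of those made without the signal filter (168 higher and 125 lower). Leaving out 35S::pBVR3 replicate 1, 2 or 3 gave 288, 346 and 221 higher and 249, 314 and 218 lower. Leaving out No-0 WT replicate 1, 2 or 3 gave 293, 195 and 412 higher and 201, 114 and 443 lower, so rises outnumbered falls in 5 of these 6 fits, all but that without No-0 WT replicate 3. The bar chart of calls by alternative gives all 19 of them.

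**Figure D2:**
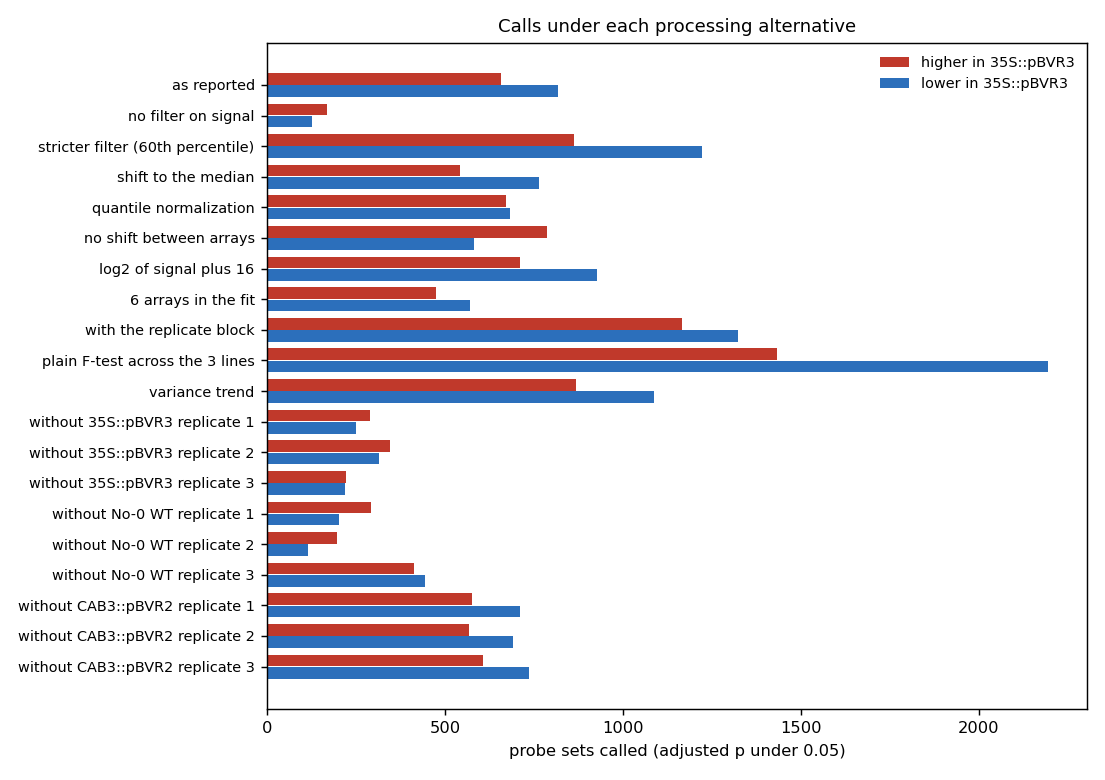
Number of probe sets called higher (red) and lower (blue) in 35S::pBVR3 as reported (top) and under each of 19 alternatives, on a linear axis from 0. The counts run from 168 higher and 125 lower without the signal filter to 1433 higher and 2196 lower by the plain F-test. That test asks whether any of the 3 lines differ, so CAB3::pBVR2 alone can make a probe set pass. Its bars give the sign of 35S::pBVR3 minus No-0 WT and are not calls of that contrast.

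Of the 83 called genes named below, 32 kept their call in each of the 19 alternatives tried. A further 5 kept it in each of the 17 or 18 alternatives that tested them: PORA, AT1G05770, AT1G14940 and AT1G35612 did not pass the stricter signal filter (all 3 arrays of at least 1 line at or above their own 60th percentile), and GH9B8 passed neither that filter nor the filter without CAB3::pBVR2 replicate 1.

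Among the rises were genes with a low signal in No-0 WT. ENODL1 (AT5G53870), named for an early nodulin-like protein of the plastocyanin-related family, had signals of 3292, 1923 and 2254 in 35S::pBVR3 against 15.3, 38.1 and 64.0 in No-0 WT (log2 difference 6.18, SE 0.45, adjusted p = 0.000721). The lowest 35S::pBVR3 array was far above the highest No-0 WT array, of which 2 of 3 were above background, and the call stood in all 19 alternatives. NRT1.5 (AT1G32450), a transporter known for loading nitrate into the root xylem, had 1284, 983 and 1370 in 35S::pBVR3 against 103, 49.5 and 199.7 in No-0 WT (log2 difference 3.58, SE 0.46, adjusted p = 0.00772). NUDT8 (AT5G47240), a Nudix hydrolase chosen after its values were seen, had 588, 481 and 676 in 35S::pBVR3 and 87.9, 97.8 and 70.6 in No-0 WT (log2 difference 2.77, SE 0.21, adjusted p = 0.000721). For both genes the arrays of the lines stood well apart. The names of ENODL1, NRT1.5 and NUDT8 came from the study's gene table, whose genes were chosen on these arrays.

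The 15 largest rises, like the 15 largest falls, were taken among called probe sets with a gene name whose lines did not overlap. The rest of these rises were mostly loci that the tables used here annotate with a locus number only. AT2G47780 had signals of 3111, 758 and 1734 in 35S::pBVR3 and 91.4, 159.8 and 104 in No-0 WT (log2 difference 3.80, SE 0.45, adjusted p = 0.00534). AT4G11190 had 2555, 1567 and 1676 in 35S::pBVR3 and 361, 212 and 167 in No-0 WT (log2 difference 3.01, SE 0.40, adjusted p = 0.00772). AT1G42705 had a log2 difference of 3.15 (SE 0.31), and these 3 loci kept their calls in every alternative. AT1G35612 had 293, 162 and 395 in 35S::pBVR3 and 16.9, 14.7 and 34.5 in No-0 WT, where only 1 of 3 arrays was above background, so its fitted log2 difference of 3.70 (adjusted p = 0.00389) is not an exact size. Another group was not above background on any No-0 WT array, so that only a lower bound of the rise can be given. AT1G05770 was at least 3.6-fold higher in 35S::pBVR3 (adjusted p = 0.000314). AT4G17470 was higher by at least 2.32-fold (adjusted p = 0.00141) and AT1G14940 by at least 2.25-fold (adjusted p = 0.000721). The bound was 2.49-fold for AT5G53990 (adjusted p = 0.0314) and 2.21-fold for AT2G04500 (adjusted p = 0.0384). These bounds set the mean of 35S::pBVR3 against the highest of the background and the probe set's own signal on each No-0 WT array, in means of log2 values. GH9B8, a member of the endoglucanase family that acts on cell wall glucans, was called higher (adjusted p = 0.00967) with 75.3 and 32.8 on replicates 1 and 2 of 35S::pBVR3, but replicate 3 was not above background either, and no fold is given for it. AT2G15010 had 296, 108 and 103 in 35S::pBVR3 and 18.2, 57.8 and 3.68 in No-0 WT (log2 difference 3.25, SE 0.84, adjusted p = 0.0432). With 1 of 3 No-0 WT arrays above background, that difference is not an exact size either. Its call was lost on leaving out 35S::pBVR3 replicates 1, 2 and 3, No-0 WT replicates 1 and 3 or CAB3::pBVR2 replicates 1, 2 and 3 or without the signal filter, with quantile normalization, with only the 6 arrays in the fit or by the plain F-test (adjusted p = 0.0541 to 0.123). The call of AT5G53990 was lost on leaving out 35S::pBVR3 replicates 1, 2 and 3 or No-0 WT replicates 1 and 3 or without the signal filter or with only the 6 arrays in the fit (adjusted p = 0.0597 to 0.0916), and that of AT2G04500 on leaving out 35S::pBVR3 replicates 1, 2 and 3, No-0 WT replicates 2 and 3 or CAB3::pBVR2 replicate 1 or without the signal filter, on log2 of signal plus 16 or by the plain F-test (adjusted p = 0.0534 to 0.124).

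**Figure D3:**
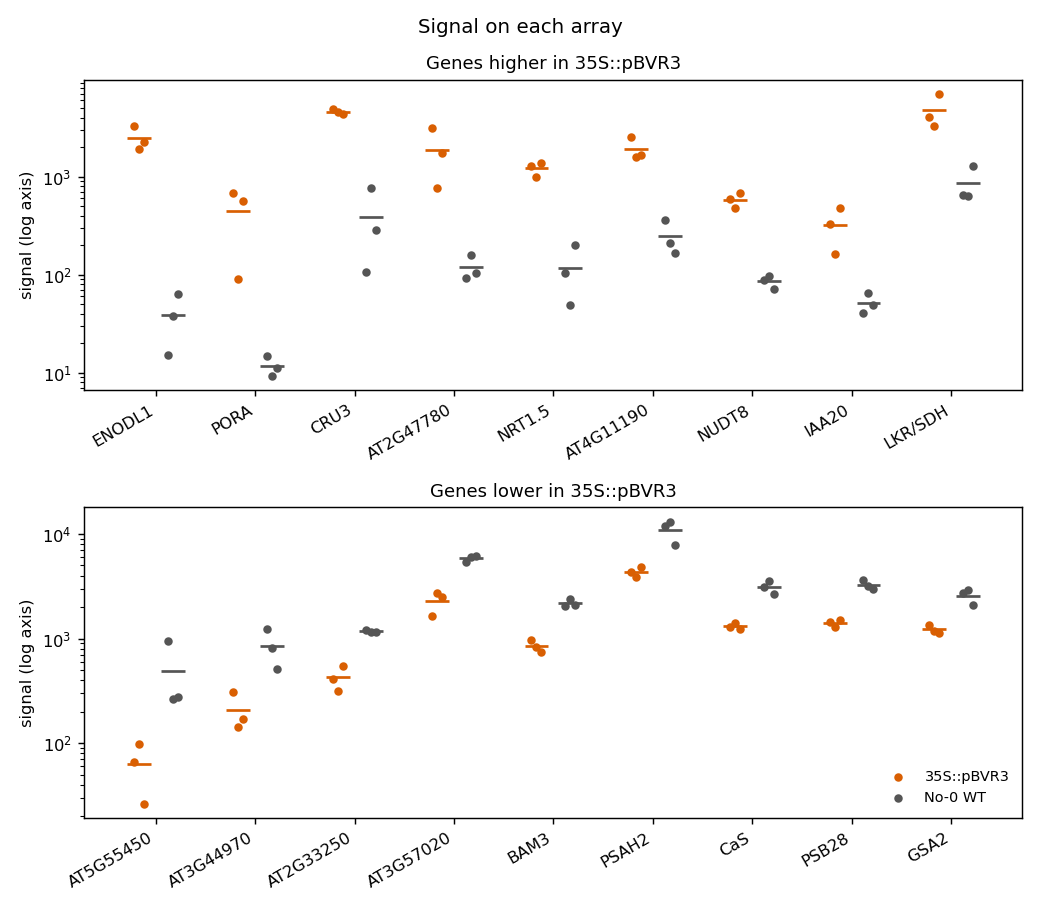
Signal on each array (points, log axis) with the mean (bar) for 9 genes called higher and 9 called lower, 35S::pBVR3 in orange to the left of No-0 WT in grey. The 3 arrays of each line do not overlap for any of the 18 genes shown. The No-0 WT points of PORA lie below background.

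Many of the chlorophyll synthesis genes fell, and the gene for the light-dependent reductase PORA rose. The pathway runs from glutamate through 5-aminolevulinate and protoporphyrin to chlorophyllide. Of 26 genes listed for it, 8 were tested under names of the array platform's table: 5 were lower, none was higher, and all 8 differences were negative, with a median of -0.75. Of all probe sets tested, 5.29% were called lower. A further 8 were tested under names taken from the study's own gene table, 3 lower and 1 higher. Those genes were chosen by the study on these arrays, for their difference between CAB3::pBVR2 and 35S::pBVR3, so counts over them are no independent evidence, and of all 342 genes so named 39.2% were called lower and 6.14% higher here. The platform count of 5 was 2 without 35S::pBVR3 replicate 1 or 2 or No-0 WT replicate 1 or 2, 3 without 35S::pBVR3 replicate 3 and 4 without No-0 WT replicate 3, and the study-table count of 3 was 1 without No-0 WT replicate 2, 2 without No-0 WT replicate 1 or any 35S::pBVR3 array and 3 without No-0 WT replicate 3.

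In pathway order, GSA2 (AT3G48730), a glutamate-1-semialdehyde aminotransferase that forms 5-aminolevulinate, had 1354, 1186 and 1128 in 35S::pBVR3 against 2757, 2907 and 2071 in No-0 WT (log2 difference -1.06, SE 0.17, adjusted p = 0.0109). HEMB1 (AT1G69740), the next enzyme, had 1899, 2318 and 1976 in 35S::pBVR3 and 3947, 3478 and 3458 in No-0 WT (log2 difference -0.82, SE 0.14, adjusted p = 0.0146). HEME1 (AT3G14930), a uroporphyrinogen decarboxylase, had 1260, 1257 and 1068 in 35S::pBVR3 and 2216, 2509 and 2038 in No-0 WT (log2 difference -0.91, SE 0.15, adjusted p = 0.0115). These 3 genes stood below No-0 WT on every array and were called in all alternatives. GSA2, and GUN5, PCB2, GUN4 and CRD1 below, were named through the study's table, whereas HEMB1 and HEME1 were named by the platform's. GUN5 (AT5G13630), the H subunit of the magnesium chelatase at the branch to chlorophyll, had 5417, 5012 and 5025 in 35S::pBVR3 and 10530, 10520 and 8401 in No-0 WT (log2 difference -0.92, SE 0.15, adjusted p = 0.0128). The arrays did not overlap, but the call was lost on leaving out No-0 WT replicate 2 (adjusted p = 0.0513). HEME2, CHLI2 (another chelatase subunit) and PCB2 (the divinyl reductase) were called lower with log2 differences of -0.77, -0.84 and -1.03. The call of HEME2 was lost on leaving out 35S::pBVR3 replicates 1, 2 and 3 or No-0 WT replicates 1 and 2 or without the signal filter (adjusted p = 0.0579 to 0.0819). That of CHLI2 was lost on leaving out 35S::pBVR3 replicates 1 and 2 or No-0 WT replicates 1 and 2 or without the signal filter (adjusted p = 0.0587 to 0.0857), and that of PCB2 on leaving out 35S::pBVR3 replicates 1, 2 and 3 or No-0 WT replicates 1 and 2 or without the signal filter or with only the 6 arrays in the fit (adjusted p = 0.0511 to 0.0909). GSA1 and the methyltransferase CHLM had log2 differences of -0.64 (adjusted p = 0.0639) and -0.46 (adjusted p = 0.0626) and passed the threshold only in some alternatives, with the replicate block among them (adjusted p = 0.0251 and 0.0487). HEMA1, the glutamyl-tRNA reductase of the first step, had 2240, 1361 and 1759 in 35S::pBVR3 and 2545, 2934 and 2774 in No-0 WT (log2 difference -0.65, SE 0.20, adjusted p = 0.0737) and was not called. GUN4, which aids the chelatase, and AT1G74470, annotated as geranylgeranyl reductase, were not called either, at log2 differences of -0.94 and -0.51 (adjusted p = 0.0621 and 0.0963, and 0.0305 and 0.046 with the replicate block). CRD1, of the cyclase step, had 10700, 9228 and 8475 in 35S::pBVR3 and 11670, 11750 and 9586 in No-0 WT (log2 difference -0.22, SE 0.16, adjusted p = 0.429), and its lines overlapped.

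The 3 protochlorophyllide oxidoreductases, which reduce protochlorophyllide in the light, did not move alike. PORA (AT5G54190), the isoform abundant in etiolated seedlings, had 681, 90.7 and 562 in 35S::pBVR3 and 14.7, 9.26 and 11.2 in No-0 WT. No No-0 WT array was above background and every 35S::pBVR3 array was, so PORA was at least 11.2-fold higher in 35S::pBVR3 (adjusted p = 0.00813), a call kept in all 18 alternatives that tested it. Replicate 2 of 35S::pBVR3 was the lowest of its line. PORB (AT4G27440) had 1557, 1078 and 1394 in 35S::pBVR3 and 2193, 2123 and 2275 in No-0 WT (log2 difference -0.73, SE 0.20, adjusted p = 0.0497). The 2 lines did not overlap, but PORB lay at the edge of the threshold, and its call was lost on leaving out any 1 of the 6 arrays of the lines or CAB3::pBVR2 replicates 2 and 3 or without the signal filter, with quantile normalization, with no shift or with only the 6 arrays in the fit (adjusted p = 0.0526 to 0.129). PORC had 406, 265 and 363 in 35S::pBVR3 and 602, 575 and 405 in No-0 WT (log2 difference -0.61, SE 0.28, adjusted p = 0.191), which was not called and overlapped on replicate 1 of 35S::pBVR3.

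**Figure D4:**
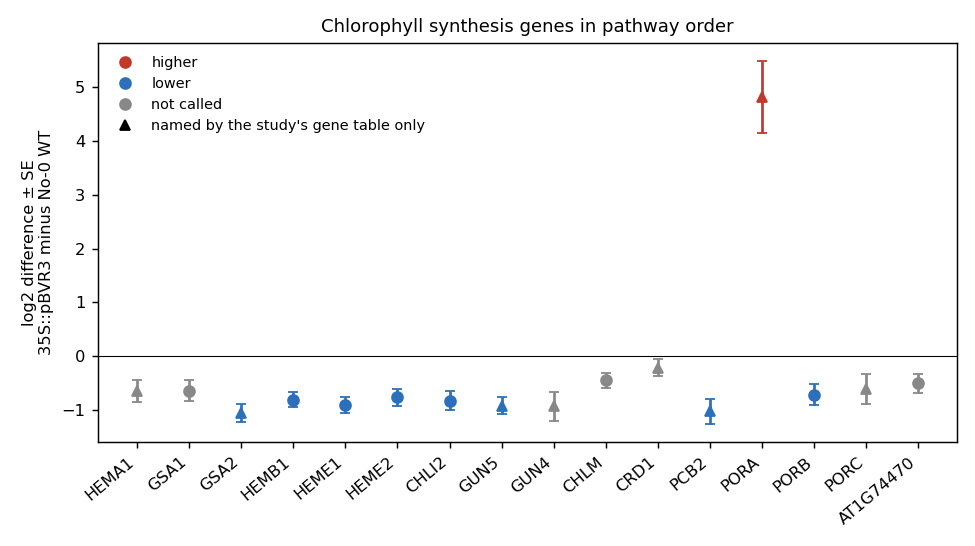
Log2 difference (35S::pBVR3 minus No-0 WT) with its SE for the 16 chlorophyll synthesis genes tested, in pathway order from the left, with those called higher in red, lower in blue and not called in grey. Circles are genes named by the platform's table and triangles those named through the study's table. PORA is the single gene above 0, at a fitted value with No-0 WT below background, and the other 15 lie between -1.06 and -0.22.

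Some genes for thylakoid structure and for assembly of the photosystems fell as well. In a list drawn up after the values were seen, 6 of 9 platform-named genes were lower, none higher, all 9 were negative and the median was -0.68. Of 7 study-table genes 6 were lower. Over all genes tested, 5.13% of platform-named and 39.2% of study-table ones were called lower. CaS (AT5G23060), a thylakoid protein that takes part in calcium signalling and chosen after its values were seen, had 1301, 1404 and 1227 in 35S::pBVR3 and 3114, 3538 and 2675 in No-0 WT (log2 difference -1.24, SE 0.16, adjusted p = 0.00772). TROL (AT4G01050), which tethers ferredoxin-NADP reductase to the thylakoid, had 2718, 2481 and 1964 in 35S::pBVR3 and 5399, 4705 and 4840 in No-0 WT (log2 difference -1.07, SE 0.18, adjusted p = 0.0136). PSB28 (AT4G28660), an assembly factor of photosystem II named through the study's table, had 1425, 1277 and 1516 in 35S::pBVR3 and 3629, 3154 and 2963 in No-0 WT (log2 difference -1.21, SE 0.16, adjusted p = 0.00813). In all 3 the highest 35S::pBVR3 array lay well below the lowest No-0 WT array, and the calls stood in every alternative. The platform count of 6 was 2 without 35S::pBVR3 replicate 1, 3 without No-0 WT replicate 3 and 1 without any other single array of the lines, and the study-table count was 4 to 6.

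Subunits of the photosystems and of electron transport were lower mostly in genes named through the study's table. Among 5 platform-named genes 1 was lower and the median was -0.48, and among 19 study-table genes 12 were lower and none higher. The shares called lower over all genes named in these ways were 5.13% and 39.2%. PSAH2 (AT1G52230), a subunit of photosystem I, had 4340, 3891 and 4879 in 35S::pBVR3 and 11890, 13160 and 7856 in No-0 WT (log2 difference -1.30, SE 0.21, adjusted p = 0.0122). FNR1 (AT5G66190), a leaf ferredoxin-NADP reductase, had 3093, 2022 and 2984 in 35S::pBVR3 and 6953, 6047 and 5649 in No-0 WT (log2 difference -1.22, SE 0.21, adjusted p = 0.0132), and ATPD, the delta subunit of the chloroplast ATP synthase, a log2 difference of -1.07 (SE 0.17, adjusted p = 0.011). These 3 genes did not overlap between lines and kept their calls throughout. PSAE-1 (AT4G28750), the platform-named gene that was called, had 8977, 6953 and 7983 in 35S::pBVR3 and 15300, 13420 and 13870 in No-0 WT (log2 difference -0.84, SE 0.15, adjusted p = 0.0159), and its call was lost on leaving out No-0 WT replicates 1 and 2 or without the signal filter (adjusted p = 0.0504 to 0.0509). The study-table count of 12 was 3 to 6 without any single array of the lines, lowest without No-0 WT replicate 1.

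The light-harvesting antenna, whose genes are textbook targets of phytochrome, had fewer calls. None of 3 platform-named genes was called by limma (2 had an unadjusted p under 0.05, and 0 passed with the replicate block). Their median was -0.37. Of 6 study-table genes 3 were lower, and 1 or 2 were with any single array of the lines left out. For all study-table genes the share called lower was 39.2%. LHCB6 (AT1G15820), a minor antenna protein of photosystem II, had 6109, 5004 and 5125 in 35S::pBVR3 and 10710, 11170 and 9350 in No-0 WT (log2 difference -0.95, SE 0.15, adjusted p = 0.011), called in all alternatives. LHCA1, an antenna protein of photosystem I, had a log2 difference of -0.59 (adjusted p = 0.0331), lost on leaving out any 1 of the 6 arrays of the lines or without the signal filter, with quantile normalization, with no shift or with only the 6 arrays in the fit (adjusted p = 0.0522 to 0.209). LHCB4.1 (AT5G01530) had 17520, 14870 and 15330 in 35S::pBVR3 and 20340, 21590 and 19730 in No-0 WT (log2 difference -0.37, SE 0.13, adjusted p = 0.112). Its arrays did not overlap, and it was not called.

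The nuclear-encoded parts of the chloroplast NADH dehydrogenase-like (NDH) complex, which carries electrons around photosystem I, and its assembly factors fell in part. Of 8 platform-named genes in a list drawn up after the values were seen, 3 were lower and none higher, all 8 were negative and the median was -0.96. Of 15 study-table genes 10 were lower. The shares called lower over all platform-named and all study-table genes were 5.13% and 39.2%. CRR28 (AT1G59720), a pentatricopeptide repeat protein that edits plastid ndh transcripts, had 86.9, 71.0 and 88.7 in 35S::pBVR3 and 168, 228 and 197 in No-0 WT (log2 difference -1.26, SE 0.22, adjusted p = 0.0137). NdhN (AT5G58260), a subunit, had 663, 386 and 682 in 35S::pBVR3 and 1065, 1177 and 1083 in No-0 WT (log2 difference -0.99, SE 0.22, adjusted p = 0.0275). Both were lower on every 35S::pBVR3 array. The call of CRR28 was lost on leaving out No-0 WT replicate 2 (adjusted p = 0.0537). That of NdhN was lost on leaving out No-0 WT replicates 1, 2 and 3 or without the signal filter or with only the 6 arrays in the fit (adjusted p = 0.0556 to 0.0921). The platform count of 3 was 0 without No-0 WT replicate 2, 1 without No-0 WT replicate 1 or 3 and 2 without any 35S::pBVR3 array, and the study-table count of 10 was 1, 2 and 9 without No-0 WT replicates 2, 1 and 3 and 4 without any 35S::pBVR3 array.

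Chloroplast ribosomal protein genes were named through the study's table alone. In a list drawn up after the values were seen, 13 of 15 were lower and none higher, with a median of -0.82. Over all 342 genes named through that table, 39.2% were called lower and the median was -0.67. PRPS20 (AT3G15190), of the small subunit, had 3638, 4470 and 5306 in 35S::pBVR3 and 11720, 12300 and 9538 in No-0 WT (log2 difference -1.33, SE 0.18, adjusted p = 0.00772). PRPL11 (AT1G32990), of the large subunit, had 1947, 1945 and 2152 in 35S::pBVR3 and 4395, 4772 and 4303 in No-0 WT (log2 difference -1.16, SE 0.14, adjusted p = 0.00662), and RPL9 a log2 difference of -1.16 (adjusted p = 0.00736). The 35S::pBVR3 arrays of these genes read less than any No-0 WT array, the calls stood in every alternative, and the replicates of each line agreed closely. The count of 13 was 5 without 35S::pBVR3 replicate 3 or No-0 WT replicate 2, 6 without No-0 WT replicate 1, 7 and 8 without 35S::pBVR3 replicates 2 and 1 and 13 without No-0 WT replicate 3.

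Genes carried by the plastid genome itself gave no call. Of 68 tested, limma called none in either direction, 5 had an unadjusted p under 0.05, 58 differences were negative and the median was -0.30. The replicate block called 1 lower, and leaving out No-0 WT replicate 1 gave 3. In the plain F-test across the 3 lines 18 passed with a negative difference, but CAB3::pBVR2 alone can make a gene pass it. The median ran between -0.47 without No-0 WT replicate 1 and -0.04 without No-0 WT replicate 2. The 10 mitochondrion-encoded genes had a median of 0.14 and none was called by limma (1 had an unadjusted p under 0.05, and the replicate block called 1 higher).

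Part of the genes of carbon metabolism and its redox control also fell. Of 3 platform-named Calvin cycle genes 2 were lower (median -0.89), and of 8 study-table genes 4. Over all platform-named and all study-table genes those shares were 5.13% and 39.2%. HCEF1 (AT3G54050), the chloroplast fructose-1,6-bisphosphatase, had 2616, 1888 and 2003 in 35S::pBVR3 and 5059, 4352 and 3867 in No-0 WT (log2 difference -1.03, SE 0.18, adjusted p = 0.0136). PRK (AT1G32060), phosphoribulokinase, had 6617, 5955 and 6854 in 35S::pBVR3 and 13210, 12610 and 11610 in No-0 WT (log2 difference -0.95, SE 0.18, adjusted p = 0.0172). FBA2, a plastid aldolase, had a log2 difference of -0.85 (adjusted p = 0.0141). All 3 stood lower on every 35S::pBVR3 array. HCEF1 and FBA2, unlike PRK, were named through the study's table. The call of HCEF1 was lost on leaving out No-0 WT replicate 2 (adjusted p = 0.0502), and that of FBA2 on leaving out No-0 WT replicate 2 (adjusted p = 0.0529). That of PRK was lost on leaving out 35S::pBVR3 replicate 2 or No-0 WT replicates 1 and 2 or without the signal filter or with quantile normalization (adjusted p = 0.053 to 0.0665). RCA, Rubisco activase, had 19950, 13010 and 12790 in 35S::pBVR3 and 21720, 20470 and 22830 in No-0 WT (log2 difference -0.54, SE 0.20, adjusted p = 0.117) and was not called. The counts of 2 and 4 both came to 0 without No-0 WT replicate 2, and the count of 2 was also 0 without 35S::pBVR3 replicate 2 or No-0 WT replicate 1 and 1 without each of the others.

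The glycine decarboxylase genes GLDP2 and GDCH, which act in photorespiration, had log2 differences of -0.85 (adjusted p = 0.0159) and -0.94 (adjusted p = 0.0386). Both were named through the study's table. The call of GLDP2 was lost on leaving out 35S::pBVR3 replicate 3 or No-0 WT replicates 1 and 2 or without the signal filter (adjusted p = 0.0504 to 0.0542). That of GDCH was lost on leaving out 35S::pBVR3 replicates 1 and 2, No-0 WT replicates 1, 2 and 3 or CAB3::pBVR2 replicate 2 or without the signal filter, with quantile normalization, with no shift or with only the 6 arrays in the fit (adjusted p = 0.0531 to 0.11). Over that pathway 1 of 3 platform-named and 4 of 5 study-table genes were lower, counts that came to 0 to 1 and 0 to 2 without a single array of the lines. Of 8 platform-named thioredoxins 4 were lower, with a median of -0.60, and of 5 study-table members 3. For this list and photorespiration, the shares over all platform-named and all study-table genes were 5.13% and 39.2%. NTRC (AT2G41680), the plastid thioredoxin reductase, had 830.1, 825 and 1120 in 35S::pBVR3 and 1791, 1644 and 1736 in No-0 WT (log2 difference -0.91, SE 0.19, adjusted p = 0.024), a call lost on leaving out 35S::pBVR3 replicates 1 and 2 or No-0 WT replicates 1, 2 and 3 or without the signal filter (adjusted p = 0.0569 to 0.0725). Without a single array of the lines the thioredoxin counts were 0 to 3 and 0 to 2, 0 for both without No-0 WT replicate 1 or 2. GR (AT3G54660), the plastid glutathione reductase, chosen after its values were seen, had 1629, 1999 and 1833 in 35S::pBVR3 and 3265, 3196 and 3192 in No-0 WT (log2 difference -0.83, SE 0.14, adjusted p = 0.0136), lost on leaving out No-0 WT replicate 2 (adjusted p = 0.0504). BAM3, listed as CT-BMY (AT4G17090), the beta-amylase of starch breakdown, was among the 15 largest falls at 978, 831 and 743 in 35S::pBVR3 and 2056, 2368 and 2078 in No-0 WT (log2 difference -1.36, SE 0.19, adjusted p = 0.00832) and kept its call in every alternative.

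**Figure D5:**
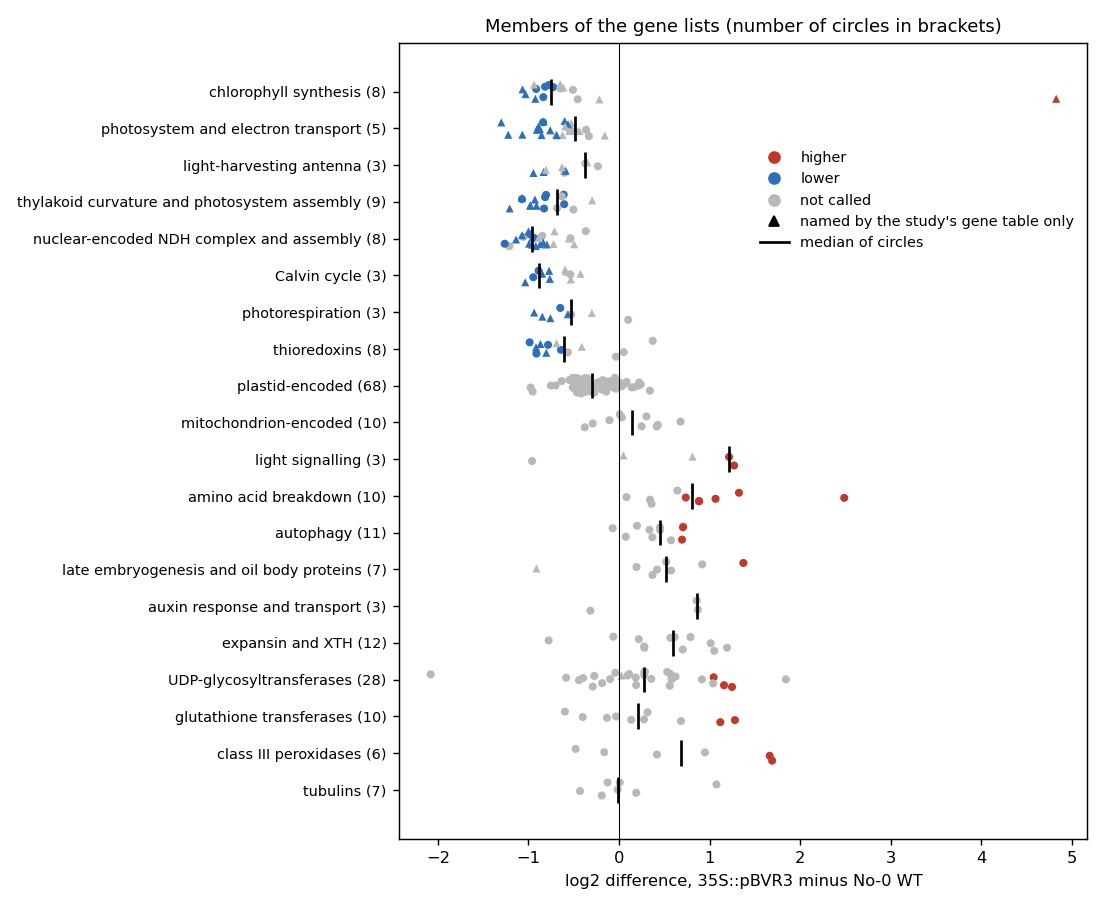
Log2 difference (35S::pBVR3 minus No-0 WT) of the members of 20 gene lists, red where called higher, blue where called lower and grey where not called, circles for genes named by the platform's table and triangles for those named through the study's table, with the median of the circles as a bar. The photosynthetic lists at the top lie below 0 apart from PORA and a few thioredoxin, photorespiration and plastid-encoded members, whereas amino acid breakdown lies above 0 throughout.

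Of the light signalling genes that could be named, 2 rose. Of 38 listed, 3 platform-named and 2 study-table genes were tested, no phytochrome apoprotein gene among them. FHL (AT5G02200), which carries phytochrome A into the nucleus, and HAT2 (AT5G47370), an HD-ZIP factor known for its induction by shade, were higher. So were 4.14% of all platform-named genes. HAT2 had 404, 339.7 and 634 in 35S::pBVR3 and 190.0, 197 and 186 in No-0 WT (log2 difference 1.21, SE 0.27, adjusted p = 0.027). HYH (AT3G17609), the bZIP partner of HY5 that promotes de-etiolation, had 239.9, 182 and 293 in 35S::pBVR3 and 517, 364 and 499 in No-0 WT (log2 difference -0.96, SE 0.31, adjusted p = 0.0866). Neither gene overlapped between lines. HYH was not called in the fit without a block and was with it (adjusted p = 0.0281). FHL had a log2 difference of 1.27 (adjusted p = 0.0171), a call lost on leaving out 35S::pBVR3 replicates 1 and 3 or No-0 WT replicates 1 and 2 or without the signal filter (adjusted p = 0.0507 to 0.0643), and that of HAT2 was lost on leaving out 35S::pBVR3 replicates 1 and 3 or No-0 WT replicates 1, 2 and 3 or without the signal filter (adjusted p = 0.0623 to 0.0811). Both calls were absent without 35S::pBVR3 replicate 1 or 3 or No-0 WT replicate 1 or 2.

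HY5, the bZIP factor that promotes photomorphogenesis, had 174, 139.7 and 238 in 35S::pBVR3 and 182, 152 and 188 in No-0 WT (log2 difference 0.05, SE 0.25, adjusted p = 0.927). PIL2, a phytochrome-interacting factor-like protein, had 152, 81.5 and 117 in 35S::pBVR3 and 36.0, 82.8 and 89.8 in No-0 WT (log2 difference 0.81, SE 0.35, adjusted p = 0.175). GI, a clock-associated protein and the single clock gene named, had 1188, 1312 and 1179 in 35S::pBVR3 and 1177, 1563 and 1485 in No-0 WT (log2 difference -0.19, SE 0.19, adjusted p = 0.575). The lines overlapped for all 3 and none was called.

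Several genes that break down amino acids rose. The branched-chain amino acids and lysine can be broken down to serve as an energy source when sugar runs short, as in seedlings kept in the dark. Whether sugar ran short here was not tested. In a list drawn up after the values were seen, 6 of 10 platform-named genes were higher and none lower, all 10 were positive and the median was 0.81. Of all probe sets tested, 4.25% were called higher. AT4G33150, annotated as LKR/SDH, the bifunctional enzyme that opens lysine breakdown, had 4071, 3264 and 6991 in 35S::pBVR3 and 653, 628 and 1289 in No-0 WT (log2 difference 2.49, SE 0.36, adjusted p = 0.00903). MGL (AT1G64660), methionine gamma-lyase, had 1535, 1880 and 1814 in 35S::pBVR3 and 667, 794 and 631 in No-0 WT (log2 difference 1.32, SE 0.21, adjusted p = 0.0108). DELTA-OAT (AT5G46180), ornithine aminotransferase, had 1176, 1427 and 1422 in 35S::pBVR3 and 673, 818 and 691 in No-0 WT (log2 difference 0.88, SE 0.15, adjusted p = 0.0136). All 3 stood higher on every 35S::pBVR3 array and kept their calls in every alternative.

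The leucine breakdown enzymes IVD and MCCB had log2 differences of 1.06 and 0.88, and ETFQO, which passes their electrons to the respiratory chain, one of 0.74 (adjusted p = 0.0312, 0.0227 and 0.0271). The call of IVD was lost on leaving out 35S::pBVR3 replicates 1, 2 and 3 or No-0 WT replicates 1 and 2 or without the signal filter or by the plain F-test (adjusted p = 0.0594 to 0.0944). That of MCCB was lost on leaving out 35S::pBVR3 replicates 1 and 3 or No-0 WT replicates 1 and 2 or without the signal filter (adjusted p = 0.0667 to 0.0828), and that of ETFQO on leaving out 35S::pBVR3 replicates 1, 2 and 3 or No-0 WT replicates 1 and 2 or without the signal filter or with only the 6 arrays in the fit (adjusted p = 0.0558 to 0.0979). ALDH6B2, a methylmalonate-semialdehyde dehydrogenase, had a log2 difference of 0.64 (adjusted p = 0.0697, and 0.0384 with the replicate block). The other 3 members, ETFALPHA, D2HGDH and ETFBETA, were not called (log2 differences of 0.36, 0.34 and 0.08, adjusted p = 0.201, 0.241 and 0.806). The count of 6 was 3 without 35S::pBVR3 replicate 1 or 3 or No-0 WT replicate 1 or 2, 4 without 35S::pBVR3 replicate 2 and 6 without No-0 WT replicate 3.

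Autophagy genes, which direct recycling of cell contents, had few calls, all of them rises. Of 11 in a list drawn up after the values were seen 2 were higher and none lower, 10 were positive and the median was 0.45. Of all platform-named genes 4.14% were called higher. ATG8G (AT3G60640), a ubiquitin-like protein of the autophagosome, had 412, 410.2 and 438 in 35S::pBVR3 and 262, 259.6 and 256 in No-0 WT (log2 difference 0.70, SE 0.17, adjusted p = 0.0343). AT5G66930, annotated as ATG101, part of the initiating kinase complex, had 522, 591 and 578 in 35S::pBVR3 and 355, 355 and 327 in No-0 WT (log2 difference 0.71, SE 0.15, adjusted p = 0.0258). The lines did not overlap for either gene. The call of ATG8G was lost on leaving out any 1 of the 6 arrays of the lines or without the signal filter (adjusted p = 0.0748 to 0.101). That of AT5G66930 was lost on leaving out any 1 of the 6 arrays of the lines or without the signal filter or with a shift to the median (adjusted p = 0.0553 to 0.0777), so the list had no call without any 1 array. ATG8F, another member of the family, had a log2 difference of 0.57 (adjusted p = 0.0675, and 0.0483 with the replicate block).

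Among seed reserves, CRU3 (AT4G28520), a cruciferin storage globulin laid down in the embryo, had 4885, 4521 and 4354 in 35S::pBVR3 and 106, 762 and 287 in No-0 WT (log2 difference 4.00, SE 0.61, adjusted p = 0.00986). It was the single member of a list of 12 seed storage and oil body genes that was tested under a name. That name came from the study's gene table. The 35S::pBVR3 arrays agreed closely, the No-0 WT arrays ranged widely below them, and the call stood in every alternative. In a wider list of late embryogenesis and oil body proteins, drawn up after the values were seen, 1 of 7 platform-named members was higher and none lower. Their median of 0.52 ran between -0.10 without No-0 WT replicate 1 and 1.16 without No-0 WT replicate 2. A further member, included through the study's table, had a log2 difference of -0.91 and was not called. Over all platform-named genes 4.14% were called higher. OLEO3 (AT5G51210), an oil body oleosin, had 181, 95.5 and 124 in 35S::pBVR3 and 30.4, 67.8 and 60.2 in No-0 WT (log2 difference 1.37, SE 0.34, adjusted p = 0.0372), lost on leaving out 35S::pBVR3 replicates 1 and 3, No-0 WT replicates 1, 2 and 3 or CAB3::pBVR2 replicate 2 or without the signal filter or with only the 6 arrays in the fit (adjusted p = 0.0503 to 0.108). LEA18 had 375, 1707 and 809 in 35S::pBVR3 and 37.4, 1808 and 1137 in No-0 WT (log2 difference 0.92, SE 1.29, adjusted p = 0.702), with No-0 WT replicate 1 far below the other 2. Fewer cells of a type and less RNA per cell cannot be told apart in whole seedlings, here or for the photosynthetic genes.

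Auxin and growth genes gave few calls. IAA20 (AT2G46990), of the Aux/IAA family of auxin response repressors and chosen after its values were seen, had 329, 161 and 479.6 in 35S::pBVR3 and 41.0, 65.2 and 49.5 in No-0 WT (log2 difference 2.53, SE 0.35, adjusted p = 0.00813). Its lowest 35S::pBVR3 array lay above the highest No-0 WT array, and it was called in every alternative. IAA29, of the same family and a known target of phytochrome-interacting factors, had 412, 387 and 759 in 35S::pBVR3 and 172, 319.9 and 361 in No-0 WT (log2 difference 0.87, SE 0.33, adjusted p = 0.13) and was not called. PILS5, listed as AT2G17500 and named for its likeness to PIN auxin carriers, had a log2 difference of 1.17 (adjusted p = 0.0265), lost on leaving out 35S::pBVR3 replicates 1, 2 and 3 or No-0 WT replicates 2 and 3 or without the signal filter (adjusted p = 0.0591 to 0.0803). Of the 3 tested genes in the auxin list limma called none (2 had an unadjusted p under 0.05, and the replicate block called 1 higher), and the median was 0.86.

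Genes of wall loosening gave no call. Of 12 expansin and XTH genes, which loosen and remodel the wall of growing cells, limma called none (3 had an unadjusted p under 0.05, and the replicate block called 2 higher and 1 lower), 10 were positive and the median was 0.59. EXPA4 (AT2G39700) had 821, 485 and 639 in 35S::pBVR3 and 381, 306 and 422 in No-0 WT (log2 difference 0.79, SE 0.30, adjusted p = 0.128, and adjusted p = 0.0477 with the block). Of 6 class III peroxidases, which act in the wall, 2 were higher, against 4.14% of all platform-named genes. AT5G66390, annotated as PRX72, had 1167, 1103 and 972 in 35S::pBVR3 and 393, 270.2 and 351 in No-0 WT (log2 difference 1.69, SE 0.22, adjusted p = 0.00772), and AT2G41480, annotated as PRX25, a log2 difference of 1.66 (adjusted p = 0.0177) with 2 of 3 No-0 WT arrays above background. PRX72 stood apart on every array and kept its call throughout. The call of PRX25 was lost on leaving out 35S::pBVR3 replicates 1 and 3 or No-0 WT replicate 2 or without the signal filter (adjusted p = 0.0517 to 0.0666), which leaves 1 peroxidase called. None of 7 tubulins was called by limma (1 had an unadjusted p under 0.05, and the replicate block called 1 higher). Their median was -0.02.

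Other genes that rose, chosen after their values were seen, were transcription factors and jacalin-related lectins. TCP15 (AT1G69690), of the TCP family that shapes organ growth, had 672, 614 and 605 in 35S::pBVR3 and 284, 284 and 283 in No-0 WT (log2 difference 1.15, SE 0.14, adjusted p = 0.00521). SPT (AT4G36930), the bHLH factor SPATULA related to the phytochrome-interacting factors, had 451, 292 and 393 in 35S::pBVR3 and 179, 110.5 and 175 in No-0 WT (log2 difference 1.30, SE 0.23, adjusted p = 0.0152), lost on leaving out 35S::pBVR3 replicate 3 or without the signal filter (adjusted p = 0.0503 to 0.0528). JAL22 (AT2G39310) had 7719, 4405 and 5914 in 35S::pBVR3 and 1774, 1266 and 1636 in No-0 WT (log2 difference 1.93, SE 0.24, adjusted p = 0.00736). The lectins JAL22 and JAL34 were bright in both lines and higher in 35S::pBVR3 on every array, with JAL34 at a log2 difference of 1.00 (adjusted p = 0.00812), and together with TCP15 they kept their calls in every alternative.

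Families of detoxifying enzymes had few calls, all of them rises among platform-named members. Of 28 UDP-glycosyltransferases 3 were higher (10.7%), of 10 glutathione transferases 2 (20%) and of 11 cytochromes P450 1 (9.09%), against 4.14% of all 8335 platform-named genes called higher. With the replicate block 6 UDP-glycosyltransferases were higher and 1 lower. The medians of the 3 families were 0.28, 0.21 and 0.10. Without a single array of the lines the counts of 3, 2 and 1 were 1 or 2, 0 to 2 and 0 or 1. Of 8 cytochromes P450 named through the study's table, 1 was higher and 1 lower. Over all genes so named the shares were 6.14% and 39.2%. Of 3 platform-named genes of abscisic acid, cold and dehydration, 2 of jasmonate and defence, 5 of glucosinolates and 2 of gibberellin and brassinosteroid, limma called none (unadjusted p under 0.05 in 0, 1, 0 and 0). Of the study-table members of these lists, 4, 3, 3 and 2 in the same order, 1 was higher, and the 4 abscisic acid genes had a median of 0.93, with 1 of them called higher by the replicate block. The one called was TSA1 (AT1G52410), of the endoplasmic reticulum bodies, with 85.9, 82.5 and 105 in 35S::pBVR3 and 48.1, 16.5 and 47.6 in No-0 WT, where replicate 2 was below background (log2 difference 1.43, SE 0.37, adjusted p = 0.0433). Its call was lost on leaving out 35S::pBVR3 replicates 1, 2 and 3, No-0 WT replicate 1 or CAB3::pBVR2 replicates 1, 2 and 3 or without the signal filter or with only the 6 arrays in the fit (adjusted p = 0.0521 to 0.119).

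The largest falls, taken by the same rule as the rises, were again mostly loci known by number. AT5G55450 had 66.5, 98.5 and 26.4 in 35S::pBVR3 and 942, 263 and 277 in No-0 WT (log2 difference -2.88, SE 0.58, adjusted p = 0.0209). AT3G44970 had 306, 142 and 171 in 35S::pBVR3 and 1241, 814 and 509.9 in No-0 WT (log2 difference -2.04, SE 0.36, adjusted p = 0.0152). The lines did not overlap for either, as the choice of the largest falls required. Replicate 3 of 35S::pBVR3 was below background for AT5G55450. AT5G55450 lost its call on leaving out 35S::pBVR3 replicates 1 and 3 or without the signal filter (adjusted p = 0.0526 to 0.0702), and AT3G44970 on leaving out 35S::pBVR3 replicate 3 or No-0 WT replicate 2 or without the signal filter (adjusted p = 0.0517 to 0.0537). AT2G33250 had 413, 318 and 544 in 35S::pBVR3 and 1220, 1162 and 1162 in No-0 WT (log2 difference -1.51, SE 0.22, adjusted p = 0.00967). AT3G57020 had 1651, 2721 and 2519 in 35S::pBVR3 and 5355, 6075 and 6104 in No-0 WT (log2 difference -1.38, SE 0.22, adjusted p = 0.0112). These 2 loci kept their calls in every alternative.

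DTX1 (AT2G04040), an efflux carrier of the MATE family, had 604, 1069 and 574 in 35S::pBVR3 and 2369, 1946 and 1651 in No-0 WT (log2 difference -1.45, SE 0.32, adjusted p = 0.027). ARCK1, a receptor-like cytosolic kinase named for its induction by abscisic acid and osmotic stress, had a log2 difference of -1.43 (adjusted p = 0.0465). The call of DTX1 was lost on leaving out 35S::pBVR3 replicates 1 and 3 or No-0 WT replicates 1 and 2 or without the signal filter (adjusted p = 0.0778 to 0.0862). That of ARCK1 was lost on leaving out any 1 of the 6 arrays of the lines or CAB3::pBVR2 replicates 1, 2 and 3 or without the signal filter, with no shift or with only the 6 arrays in the fit (adjusted p = 0.0515 to 0.123). The remaining loci of the 15 largest falls were AT1G43910, AT1G52770, AT4G12500, AT5G17760, AT1G65490, AT3G56290 and AT1G21500, at log2 differences of -1.68, -1.58, -1.54, -1.41, -1.41, -1.38 and -1.37. None of these 7 overlapped between lines, since the choice of the largest falls required it.

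Each of those 7 calls was lost in some alternative. AT1G43910 lost its call on leaving out 35S::pBVR3 replicates 1, 2 and 3 or No-0 WT replicates 1 and 3 or without the signal filter or with only the 6 arrays in the fit (adjusted p = 0.0606 to 0.0987). AT1G52770 lost it on leaving out any 1 of the 6 arrays of the lines or without the signal filter (adjusted p = 0.0796 to 0.111). AT4G12500 lost it on leaving out 35S::pBVR3 replicate 3 or No-0 WT replicate 2 or without the signal filter (adjusted p = 0.053 to 0.0654), and AT5G17760 on leaving out 35S::pBVR3 replicate 3 or without the signal filter (adjusted p = 0.0527 to 0.056). AT1G65490 lost it on leaving out 35S::pBVR3 replicates 2 and 3 or No-0 WT replicates 1 and 2 or without the signal filter or with only the 6 arrays in the fit (adjusted p = 0.0524 to 0.0762). AT3G56290 lost it on leaving out No-0 WT replicate 2 (adjusted p = 0.0504), and AT1G21500 on leaving out 35S::pBVR3 replicate 3 or No-0 WT replicates 1 and 2 or without the signal filter (adjusted p = 0.0507 to 0.0564).

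Flavonoid genes, which serve the red pigments of light-grown seedlings, had 2 of 4 platform-named members lower and a median of -1.07. Of all platform-named genes 5.13% were called lower. DFR (AT5G42800), dihydroflavonol reductase, was among the 15 largest falls with a log2 difference of -1.48 (adjusted p = 0.0161) and 2 of 3 35S::pBVR3 arrays above background, a call lost on leaving out 35S::pBVR3 replicate 3 or No-0 WT replicate 2 or without the signal filter (adjusted p = 0.0542 to 0.0573). UF3GT (AT5G54060), an anthocyanin glycosyltransferase, had 75.4, 27.9 and 3.85 in 35S::pBVR3 and 59.0, 77.0 and 134 in No-0 WT (log2 difference -2.08, SE 1.02, adjusted p = 0.229). Its lines overlapped, 1 of 3 35S::pBVR3 arrays was above background, and it was not called. The count of 2 was 0 without 35S::pBVR3 replicate 3 or No-0 WT replicate 2, 1 without 35S::pBVR3 replicate 1 or 2 or No-0 WT replicate 1 and 2 without No-0 WT replicate 3.

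The study carried 3 genes forward for their part in hypocotyl growth, and all 3 were lower in 35S::pBVR3. LHE1 (AT2G36145) had 1059, 849 and 995 in 35S::pBVR3 and 2878, 2151 and 1638 in No-0 WT (log2 difference -1.17, SE 0.21, adjusted p = 0.0161). CIPK20 (AT5G45820), a protein kinase that works with calcineurin B-like calcium sensors, had 658, 556 and 683 in 35S::pBVR3 and 1197, 1383 and 1306 in No-0 WT (log2 difference -1.04, SE 0.21, adjusted p = 0.0214). GCN5L (AT1G26220), an N-acetyltransferase, had 274, 239.9 and 261 in 35S::pBVR3 and 646, 502 and 421 in No-0 WT (log2 difference -0.999, SE 0.18, adjusted p = 0.0167). No array of 35S::pBVR3 reached the lowest No-0 WT array for any of these genes. The study chose them on these same arrays, for their difference between the transgenic lines. By quantitative RT-PCR, the study reports less robust changes between the wild type and the constitutive line for each of them. LHE1 lost its call on leaving out No-0 WT replicate 2 or without the signal filter (adjusted p = 0.0541 to 0.0572). CIPK20 lost it on leaving out any 1 of the 6 arrays of the lines or without the signal filter (adjusted p = 0.0509 to 0.0764), and GCN5L on leaving out 35S::pBVR3 replicate 3 or No-0 WT replicate 2 or without the signal filter (adjusted p = 0.0526 to 0.0573).

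Markers of the cell types in a seedling could be checked for few types. FMA (AT3G24140), which drives the last step of guard cell formation, had 109, 135 and 129.5 in 35S::pBVR3 and 200.3, 362 and 273 in No-0 WT (log2 difference -1.12, SE 0.35, adjusted p = 0.0774). Its lines did not overlap, and it passed the threshold with the replicate block (adjusted p = 0.0232). TMM, the other tested gene of the stomatal list, had 224, 263 and 185 in 35S::pBVR3 and 298, 229 and 226 in No-0 WT (log2 difference -0.17, SE 0.23, adjusted p = 0.694), and its lines overlapped. The vascular and clock lists had 1 platform-named gene each, neither called, and no root, epidermis or dividing-cell marker was tested under a name. The make-up of the seedlings in cell types was thus not tested.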

How the data were processed

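The 9 ATH1 arrays (whole seedlings, 3 lines, 3 RNA extractions a line) were used as deposited. The authors deposited linear MAS5 intensities per probe set (version not given in the sources used here), scaled so that each array's mean trimmed by 2% is 500, with the steps made in GeneSpring not in them. Values were taken to log2 (3 values of 0 set to 0.1), and each array was shifted to a common 75th percentile. A probe set was kept if at least 1 of 9 arrays reached its own 40th percentile, a replacement for the study's flag filter, since no detection calls were used here. Columns of other samples numbered 0.

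35S::pBVR3 minus No-0 WT was tested in limma 3.58.1 (R 4.3.3) with lmFit and eBayes over all 9 arrays, two-sided, Benjamini-Hochberg over 15436 probe sets, threshold 0.05. The pipeline was tested on simulated data. No exact permutation test is given, since 3 arrays against 3 cannot go below p = 0.1. The number of arrays limits the precision. The labels give every line replicate numbers 1 to 3. Deviations from the line means correlated at 0.287, 0.267 and 0.280 between 35S::pBVR3 and No-0 WT arrays of the same number. They did so at over 0.1 for every same-number pair with CAB3::pBVR2, so the replicate block takes the numbers to pair the arrays. The fit reported here has no block, so its p-values ignore this pairing. With the block 1167 probe sets were higher and 1323 lower, against 656 and 817.

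Names came from the platform's table, where 13513 probe sets had 1 gene, 503 several and 8730 none, with symbols updated through a RefSeq gene table. Of probe sets with 1 gene, 1579 had a symbol other than the locus. For 346 others the name came from the study's gene table, of which no values were used. The brightest probe set stood for a gene. The members and lists were chosen with earlier results of these data known. Genes named were the 15 largest rises and 15 largest falls, light signalling and clock genes and the study's candidate genes. The rises and falls were ranked only among called probe sets with a gene name, no overlap of the lines and at least 1 array above background. Of all called probe sets 52.55% had 1 gene in the platform's table. Up to 4 called and 2 other members of each remaining list were also named. Others, given as chosen after their values were seen, lay outside these rules, as did further chlorophyll, carbon and amino acid genes. Alternatives covered the filter, shift, offset, arrays in the fit, block, plain F-test, variance trend and each array left out.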

Additional observations from a re-analysis of the deposited data

How the results depend on the processing

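Calls depended on the filter, the block and single arrays. Without the signal filter 168 probe sets were higher and 125 lower (158 and 71 by at least 2-fold), over 22746 tested. With the replicate block 1167 were higher and 1323 lower. The plain F-test across the 3 lines called 1433 higher and 2196 lower. With no shift between arrays 108 were lower by at least 2-fold, against 172. Leaving out 1 array gave 195 to 607 higher and 114 to 736 lower, and by at least 2-fold 178 to 339 higher and 62 to 185 lower. Over the described lists, 43 platform-named members were called, 8 without the filter, 69 with the block, 97 by the plain F-test and 9 to 44 with 1 array left out. Removing an array also leaves fewer arrays to estimate the spread, and testing more probe sets makes the adjustment stricter; other causes were not tested.

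Of 83 called genes named, 32 kept their call in all 19 alternatives and 5 in each of the 17 or 18 that tested them, none changed sign, 40 lost it without the filter and 46 on leaving out at least 1 array. The replicate block ended no call, and beyond the genes for which its value is given it changed no other call of a named gene. Of 24 genes named and not called, 17 passed in at least 1 alternative. The plain F-test across the 3 lines is among these alternatives, and passing it is not a call of 35S::pBVR3 against No-0 WT. Leaving out 1 array moved HY5 between -0.15 (without 35S::pBVR3 replicate 3) and 0.23 (without 35S::pBVR3 replicate 2), with -0.04 without No-0 WT replicate 2, and LEA18 between -0.84 (without No-0 WT replicate 1) and 1.96 (without No-0 WT replicate 2). Signals near background (28.0 to 34.0 in 35S::pBVR3, 27.0 to 31.6 in No-0 WT) limit what can be said of dim genes.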
